A study of Mus musculus with 12 samples.

Results

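The malate-aspartate shuttle and the entry of glutamine carbon into the TCA cycle were followed through 7 enzyme genes, *Mdh1*, *Mdh2*, *Got1*, *Got2*, *Glud1*, *Gpt2* and *Me2*, in mouse CD8+ T cells. The genes were taken from the table of gene counts by symbol. Each symbol was found once, so the set is 7 of the 13780 genes listed, and all 7 were among the 13767 genes that passed the filter on low counts. Splenic CD8+ T cells came from wild-type C57BL/6J mice of 8 to 12 weeks, purified by positive magnetic selection. Naïve cells (n = 4, from separate mice) were frozen at once after purification. The others were cultured for 72 h with IL-2 (10 U/ml) and beads carrying antibodies to CD3 and CD28, either in plain media (n = 4) or in media with 40 mM sodium lactate (n = 4). The activated cells came from 5 donors, and 3 of these donors contributed a library to each condition. The media control held no added sodium salt, so lactate and the added sodium cannot be told apart in these libraries.

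The shuttle carries the reducing power of cytosolic NADH into mitochondria, whose inner membrane NADH itself does not cross. In the cytosol, malate dehydrogenase reduces oxaloacetate to malate. Malate enters the matrix, is oxidised again by the mitochondrial malate dehydrogenase, and the oxaloacetate formed is turned into aspartate, which leaves and is turned back by the cytosolic aspartate aminotransferase. Oxidation of lactate to pyruvate makes cytosolic NADH, which this shuttle can carry. Glutamine, a main carbon source of proliferating T cells, is first cleaved to glutamate, and glutamate then gives 2-oxoglutarate either through glutamate dehydrogenase or through aminotransferases such as the mitochondrial alanine aminotransferase encoded by *Gpt2*.

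The promoters of 3 genes are shown because these genes span the range of the response to lactate: *Gpt2* differed most between lactate and media, *Got1* had the next largest difference, and *Glud1* had almost none. Each is the stretch of 250 bases before the RefSeq transcription start (GRCm38.p6), written in the direction of the gene, and capitals mark matches to the motifs searched. The windows are chr8:85492326-85492575 on the plus strand for *Gpt2*, chr19:43524606-43524855 on the minus strand for *Got1* and chr14:34310477-34310726 on the plus strand for *Glud1*.
Gpt2: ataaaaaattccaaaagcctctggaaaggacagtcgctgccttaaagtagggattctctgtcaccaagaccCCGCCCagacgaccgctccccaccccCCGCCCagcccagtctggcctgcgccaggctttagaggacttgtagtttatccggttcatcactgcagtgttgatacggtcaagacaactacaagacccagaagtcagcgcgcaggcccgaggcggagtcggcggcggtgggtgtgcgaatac
Got1: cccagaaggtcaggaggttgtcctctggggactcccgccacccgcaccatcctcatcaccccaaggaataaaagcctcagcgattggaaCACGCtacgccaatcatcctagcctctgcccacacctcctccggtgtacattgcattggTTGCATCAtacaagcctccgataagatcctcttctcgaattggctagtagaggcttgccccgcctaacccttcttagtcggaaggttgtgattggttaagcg
Glud1: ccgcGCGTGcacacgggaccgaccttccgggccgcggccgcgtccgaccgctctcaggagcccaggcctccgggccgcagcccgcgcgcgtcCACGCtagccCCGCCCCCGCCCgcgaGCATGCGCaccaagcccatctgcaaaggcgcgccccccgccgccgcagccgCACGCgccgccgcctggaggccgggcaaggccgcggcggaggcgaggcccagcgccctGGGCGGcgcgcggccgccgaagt

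Of the 7 genes, 6 had an entry in the RefSeq promoter table. The motifs searched on both strands were TGATGCAA (ATF4), TCAAGGTC (ERR), CCGGAAGT (GABPA), ACGTG or GCGTG (HIF-1 core), CACGTG (MYC), GCGCATGC (NRF1) and GGGCGG (SP1). The MYC motif contains the first HIF-1 core, so a match to it would also count there. *Got1* held an ATF4 match, TTGCATCA, which 0.791% of 32851 promoter windows of the same length also hold. *Glud1* held an NRF1 match, GCATGCGC, against 2.26% of windows. HIF-1 core letters were present in *Got1* and *Glud1* and in 38.6% of windows, and were not found in the *Gpt2* window. The windows of *Got2*, *Mdh1* and *Mdh2*, which are not shown, also held them. SP1 letters were in *Gpt2* and *Glud1* and in 32.7% of windows. They were also in the windows of *Mdh1* and *Mdh2*. No match to the ERR (0.935% of windows), GABPA (2.88%) or MYC (6.02%) letters was found in the 3 windows. The *Glud1* window was 82% G or C, the *Gpt2* window 57.6% and the *Got1* window 54.4%, against a median of 52.4% over all windows. These are matches of letters only.

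Total counts per library ran from 14726904 to 21478137. Levels are given in CPM, the share of a library's TMM-scaled total taken by a gene. For single cell type markers the total was not scaled by TMM. Fold changes come from edgeR's quasi-likelihood test over all 12 libraries. A gene was called when its Benjamini-Hochberg adjusted p was at most 0.01. Markers of CD8+ T cells were present throughout, with a summed level of 2497 to 4824 CPM in naïve, 3729 to 4540 in media and 2831 to 3451 in lactate libraries over 7 of 7 genes. The naïve libraries also carried RNA of other spleen cells. The 7 B cell markers summed to 610.7 to 1479 CPM in naïve, 12.0 to 20.3 in media and 6.46 to 8.12 in lactate libraries. The 7 myeloid markers summed to 493 to 1608, 12.0 to 19.0 and 5.53 to 10.98 CPM in the same order, the 5 dendritic cell markers to 61.6 to 146, 0.279 to 0.601 and 0.314 to 2.82 CPM, and the 5 listed red cell markers to 85.1 to 3497, 0 to 0.231 and 0.0708 to 1.90 CPM. The 4 NK cell markers summed to 37.6 to 48.3, 3.40 to 6.58 and 9.38 to 31.5 CPM, of which most was *Eomes*, a gene that CD8+ T cells also express, and the 4 markers of CD4+ T cells to 44.3 to 76.5, 48.0 to 60.6 and 83.7 to 96.6 CPM. *Cd4* itself was at 11.1 to 27.2 CPM in naïve libraries and below 1 CPM in all activated libraries. Among activated libraries *Xcr1* and *Siglech* were at 0 throughout, and *Lyz2* reached at most 0.108 CPM. These values move with activation, and their part in the naïve comparisons was not tested. Between media and lactate the sums of the CD8+ T cell, B cell and myeloid markers were lower in every lactate library. Those of the NK and CD4+ T cell markers were higher. Among the CD8+ T cell markers *Cd3e* was at 603 to 796 CPM in media and 311 to 407.5 CPM in lactate. *Cd3d*, *Cd3g*, *Trac* and *Lck* were likewise lower without overlap. *Cd8a* overlapped, at 849 to 1061 CPM in media and 756 to 948 CPM in lactate. *Cd8b1* overlapped and ran higher with lactate, at 381 to 476 and 437 to 594 CPM. Most of the CD4+ T cell sum in these libraries was *Zbtb7b*, at 43.9 to 57.2 CPM in media and 71.3 to 90.1 CPM in lactate. The part of these markers in the differences between lactate and media was not tested either. In bulk RNA, fewer cells of a type and less RNA per cell cannot be told apart.

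The question asked of the lactate and media libraries was how exposure to lactate during activation moves this pathway. *Gpt2*, *Mdh2* and *Got2* were higher with lactate, *Got1* was higher in every lactate library than in any media library without passing the threshold, and *Mdh1*, *Glud1* and *Me2* overlapped between the groups. Thus 3 of 7 genes were called higher and none lower, where 13.9% of all tested genes were called higher and 11.1% lower. The median log2 fold change of the 7 was 0.47, against -0.0016 over all genes. No overlap with all lactate libraries on top was seen for 4 of 7, and for 23.2% of all genes. With donor as a replicate block in the fit of 12 libraries, 1 of the 7, *Gpt2*, was called. With such a block the difference between lactate and media rests on the 3 donors that gave a library of each condition. Its estimates are therefore not separate from the donor differences given below. Library numbers fall into a low range (1 to 9, with 3 media and 2 lactate libraries) and a high range (16 to 26, with 1 and 2). The labels do not say what these ranges stand for. The log2 difference of the means within each was 1.51 and 1.75 for *Gpt2*, 0.56 and 0.58 for *Mdh2* and 0.70 and 0.69 for *Got1*. It was 0.44 in both for *Got2*, 0.21 and 0.087 for *Mdh1*, -0.028 and -0.085 for *Glud1* and -0.034 and -0.057 for *Me2*. *Mdh1* and *Mdh2* are among the genes that the study labelled on these samples, so they are not independent evidence of a direction. All 7 genes were chosen with earlier results of these data known, so their share of calls is not independent evidence either.

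**Figure D1:**
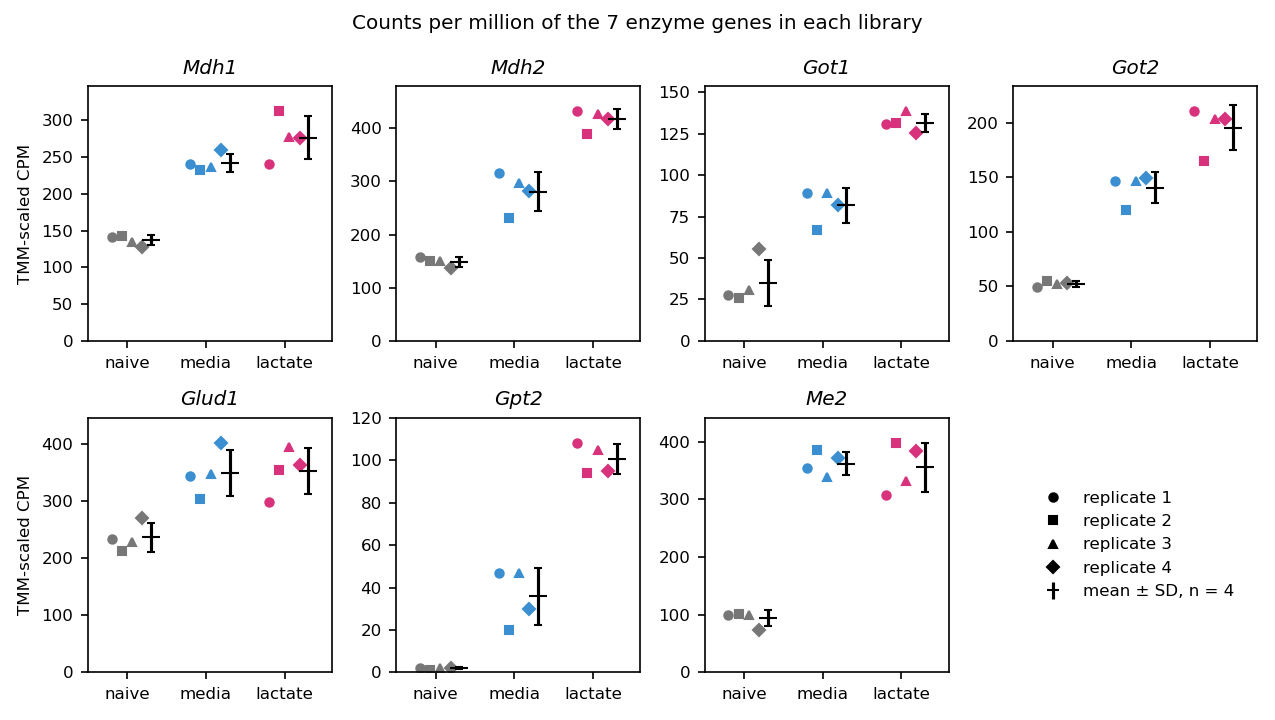
TMM-scaled CPM (linear axis from 0, a separate scale for each gene) of the 7 genes in each library of the naïve, media and lactate groups, with the mean ± SD of each group (n = 4). For *Mdh2*, *Got1*, *Got2* and *Gpt2* the lactate points lie above all media points, while for *Mdh1*, *Glud1* and *Me2* the groups overlap.

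*Gpt2*, the mitochondrial alanine aminotransferase (ENSMUSG00000031700, chr8:85492576-85527560, plus strand, GRCm38), had the largest fold change of the 7 in each comparison. Its level was 2.03, 1.20, 1.89 and 2.30 CPM in the naïve libraries 1 to 4, which rests on 20 to 41 counts. In media libraries it was 46.6, 19.9, 47.0 and 29.7 CPM, and in lactate libraries 108, 93.8, 105 and 95.1 CPM. Thus the 3 groups did not overlap, and the media libraries spread most, with a coefficient of variation of 37.2% against 7.09% in lactate. The lactate libraries were 2.80-fold above media (log2 fold change 1.49 ± 0.24 SE, 95% interval 0.97 to 2.00, adjusted p = 0.00051, edgeR). In the 3 donors with a library of each condition the log2 difference was 1.21, 0.99 and 1.68. The call held in all 25 alternatives tried, with log2 fold changes of 1.29 to 1.65, and with donor as a replicate block the adjusted p was 0.0058 in the fit of 12 libraries. Against naïve cells the log2 fold change was 4.26 ± 0.29 in media (adjusted p = 8.4e-08) and 5.75 ± 0.30 in lactate (adjusted p = 1.0e-08).

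*Gpt*, the paralogue that encodes the cytosolic alanine aminotransferase, was low and did not pass in any comparison. It was at 6.28 ± 1.52 CPM in naïve, 7.81 ± 0.48 in media and 7.74 ± 0.64 in lactate libraries (SD, n = 4), with a log2 difference between lactate and media of -0.012 ± 0.18 (adjusted p = 0.98, edgeR).

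*Glud1*, which encodes the glutamate dehydrogenase of the matrix (ENSMUSG00000021794, chr14:34310727-34345265, plus strand), was at 234, 213, 228 and 271 CPM in naïve libraries. It was at 344, 304, 347 and 402 CPM in media and at 298, 354.5, 396 and 363 CPM in lactate libraries. The ranges of media and lactate overlapped almost wholly. The log2 difference between them was 0.014 ± 0.12 (95% interval -0.24 to 0.27, adjusted p = 0.95, edgeR), and its sign turned under each other scaling (-0.011 to -0.030) and with donor as a replicate block (-0.11). The interval leaves room for a change of up to about 0.27 on the log2 scale. Its log2 fold changes against naïve cells were the smallest of the 7, at 0.56 ± 0.12 in media (adjusted p = 0.00086) and 0.58 ± 0.12 in lactate (adjusted p = 0.00061). Without naïve replicate 2 the first fell to 0.43 and lost its call (adjusted p = 0.011).

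The ratio of *Glud1* to *Gpt2*, taken per exon length within each library, compares these enzymes of glutamate entry without any scaling between libraries. It was 154.8, 237, 162 and 158 in naïve libraries, 9.90, 20.5, 9.90 and 18.2 in media and 3.70, 5.07, 5.06 and 5.12 in lactate libraries. The 3 groups did not overlap, and in every library *Glud1* had the higher length-scaled level. The difference in the log2 ratio was -1.56 in lactate against media, -3.66 in media against naïve and -5.22 in lactate against naïve. Each had an exact two-sided permutation p of 0.0286, the smallest that 4 against 4 libraries can give, and an adjusted p of 0.0514 over the 9 ratio tests, which missed the threshold of 0.05. The permutations do not pair libraries by donor. In the 3 donors with a library of each condition the log2 ratio differed by -1.42, -0.97 and -1.83 between lactate and media.

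*Mdh1*, the cytosolic malate dehydrogenase (ENSMUSG00000020321, chr11:21556787-21572367, minus strand), was at 141, 143, 134 and 128 CPM in naïve, 240.1, 232, 237 and 259.9 CPM in media and 239.9, 312, 277 and 275 CPM in lactate libraries. Lactate replicate 1 lay within the media range, and the other 3 lay above it. The log2 difference between lactate and media was 0.19 ± 0.089 (95% interval -0.0051 to 0.38, adjusted p = 0.11, edgeR). It was called in none of the 25 alternatives, but ranged from 0.12 without lactate replicate 2 to 0.25 without lactate replicate 1 (adjusted p = 0.28 and 0.039). The 3 donors gave -0.0012, 0.40 and 0.083. *Mdh1* was above naïve by 0.83 ± 0.090 in media (adjusted p = 4.5e-06) and by 1.02 ± 0.090 in lactate (adjusted p = 5.8e-07) on the log2 scale. Of its exons, 2.03% overlap *Wdpcp* on the opposite strand.

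*Mdh2*, the malate dehydrogenase of the matrix (ENSMUSG00000019179, chr5:135778480-135790398, plus strand), was at 157, 149.8, 149.5 and 137 CPM in naïve, 315, 230.4, 296 and 282 CPM in media and 431, 389.6, 427 and 418 CPM in lactate libraries. The lowest lactate library lay above the highest media library. The difference was 1.48-fold (log2 fold change 0.57 ± 0.099, 95% interval 0.35 to 0.78, adjusted p = 0.00088, edgeR), and the 3 donors gave 0.45, 0.40 and 0.57. With donor as a replicate block the estimate was 0.47 and the call was lost (adjusted p = 0.012), while a block over the 8 activated libraries alone gave 0.48 (adjusted p = 0.0036). Media and lactate libraries were above naïve by 0.92 ± 0.10 and 1.49 ± 0.10 on the log2 scale (adjusted p = 4.5e-06 and 6.1e-08).

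Per exon length, *Mdh1* exceeded *Mdh2* in every naïve and media library, with ratios of 1.20 to 1.28 and 1.02 to 1.35. In lactate the ratio was 0.744, 1.07, 0.868 and 0.882 in replicates 1 to 4, so *Mdh2* had the higher length-scaled level in 3 of 4 libraries. Lactate replicate 2 lay inside the media range. The difference in the log2 ratio was -0.39 in lactate against media (exact permutation p = 0.0857, adjusted p = 0.129) and -0.48 in lactate against naïve (exact permutation p = 0.0286, adjusted p = 0.0514), and neither passed. The 3 donors gave -0.45, 0.0018 and -0.49 between lactate and media.

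*Got1*, the cytosolic aspartate aminotransferase (ENSMUSG00000025190, chr19:43499752-43524605, minus strand), was at 27.9, 25.9, 30.6 and 55.2 CPM in naïve libraries. It was at 89.1, 66.9, 89.1 and 81.7 CPM in media and at 131, 131.5, 138 and 125 CPM in lactate libraries. The 4 lactate libraries were tight and all above media, and naïve replicate 4 stood far above the other naïve libraries. The lactate libraries were 1.61-fold above media (log2 fold change 0.69 ± 0.20, 95% interval 0.25 to 1.124), with an adjusted p of 0.017 that missed 0.01 (edgeR). That spread is shared with the naïve group: without naïve replicate 4 the difference was 0.69 with an adjusted p of 0.00016, and in a fit of the media and lactate groups alone the adjusted p was 0.00041. With donor as a replicate block it was 0.17 in the fit of 12 libraries and 0.0014 in that of the 8 activated libraries, and the 3 donors gave 0.56, 0.56 and 0.62. The gene was called in 6 of the 25 alternatives. Leaving out any 1 activated library brought no call, with an adjusted p from 0.028 to 0.057 (edgeR). Against naïve cells *Got1* rose by 1.23 ± 0.21 in media (adjusted p = 0.00017) and by 1.91 ± 0.21 in lactate (adjusted p = 3.4e-06). These were 1.53 and 2.22 without naïve replicate 4. Among libraries with numbers 1 to 9 the differences were 1.52 and 2.22, and among those numbered 16 to 26, whose only naïve library is replicate 4, they were 0.57 and 1.25.

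*Got2*, the aspartate aminotransferase of the matrix (ENSMUSG00000031672, chr8:95864134-95888547, minus strand), was at 49.1, 55.0, 52.3 and 52.7 CPM in naïve, 146, 119.8, 147 and 149.5 CPM in media and 210.3, 165, 203 and 203 CPM in lactate libraries. The groups did not overlap, and replicate 2 was the lowest in both activated groups, although these replicates came from different donors. The difference was 1.39-fold (log2 fold change 0.47 ± 0.10, 95% interval 0.26 to 0.69, adjusted p = 0.0027, edgeR). The call was lost with donor as a replicate block, with 12 libraries (0.38, adjusted p = 0.036) and with 8 (0.38, adjusted p = 0.016), and narrowly without lactate replicate 3 or 4 (adjusted p = 0.012 for each). The 3 donors gave 0.52, 0.17 and 0.44. *Got2* was above naïve by 1.43 ± 0.10 in media and 1.90 ± 0.10 in lactate on the log2 scale (adjusted p = 1.4e-07 and 1.3e-08). Of its exons, 9% overlap *Gm45760* on the opposite strand, and whether the counting used strand is not given in the sources used here.

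The ratio of *Got1* to *Got2* per exon length was 1.04 to 1.16 in media and 1.17 to 1.52 in lactate libraries, without overlap, though media replicate 1 (1.16) and lactate replicate 4 (1.17) were close. The log2 ratio was 0.22 higher in lactate (exact permutation p = 0.0286, adjusted p = 0.0514), and 0.14 higher without lactate replicate 2. The 3 donors gave 0.034, 0.39 and 0.17. Naïve libraries ran from 0.897 to 1.99, the upper end being replicate 4, and overlapped both.

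**Figure D2:**
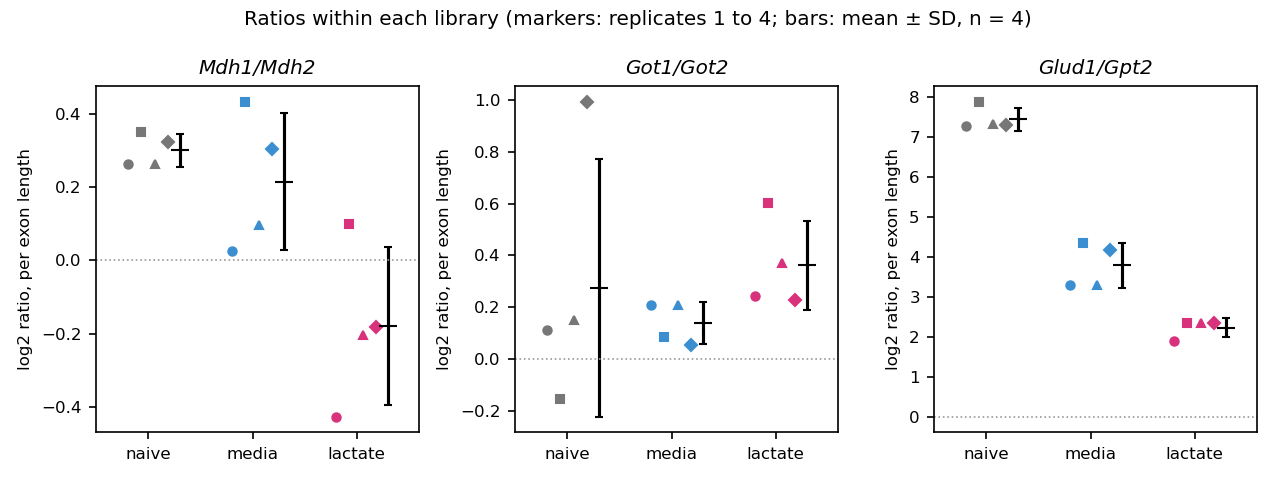
Log2 ratio of length-scaled counts of *Mdh1* to *Mdh2*, *Got1* to *Got2* and *Glud1* to *Gpt2* in each library, with mean ± SD (n = 4); the dotted line at 0 marks equal levels. The *Glud1* to *Gpt2* ratio falls in steps from naïve (mean 7.45) through media (3.79) to lactate (2.23), while the other ratios vary over a much narrower range.

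*Me2*, the mitochondrial malic enzyme that converts malate to pyruvate (ENSMUSG00000024556, chr18:73769903-73815449, minus strand), was at 99.5, 102, 100.1 and 72.8 CPM in naïve libraries. It was at 354, 385, 338 and 371 CPM in media and at 308, 397.5, 332 and 383 CPM in lactate libraries. The activated groups overlapped, and both lay far above naïve. The log2 difference between lactate and media was -0.027 ± 0.12 (95% interval -0.29 to 0.23, adjusted p = 0.89, edgeR), and it turned positive in 6 of the 25 alternatives. Against naïve, *Me2* rose by 1.95 ± 0.12 in media and 1.92 ± 0.12 in lactate (adjusted p = 5.2e-08 and 4.4e-08). Without naïve replicate 4 these were 1.84 and 1.81.

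All 7 genes were called higher in media than in naïve cells and in lactate than in naïve cells, and none of them overlapped with the naïve libraries. Of all tested genes, 28.5% were called higher and 29.0% lower in media against naïve, and 33.0% and 32.0% in lactate against naïve. The share without overlap and with the activated libraries on top was 30.7% in media and 35.0% in lactate. The median log2 fold change of the 7 was 1.23 in media and 1.90 in lactate, against -0.029 and 0.012 over all genes. Within the low range of library numbers the 7 differences were 0.56 to 4.32 in media and 0.53 to 5.83 in lactate. Within the high range, which has 1 naïve library, they were 0.57 to 3.63 and 0.48 to 5.38. These comparisons share the naïve libraries, and the naïve libraries hold the marker levels of other cells given above.

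**Figure D3:**
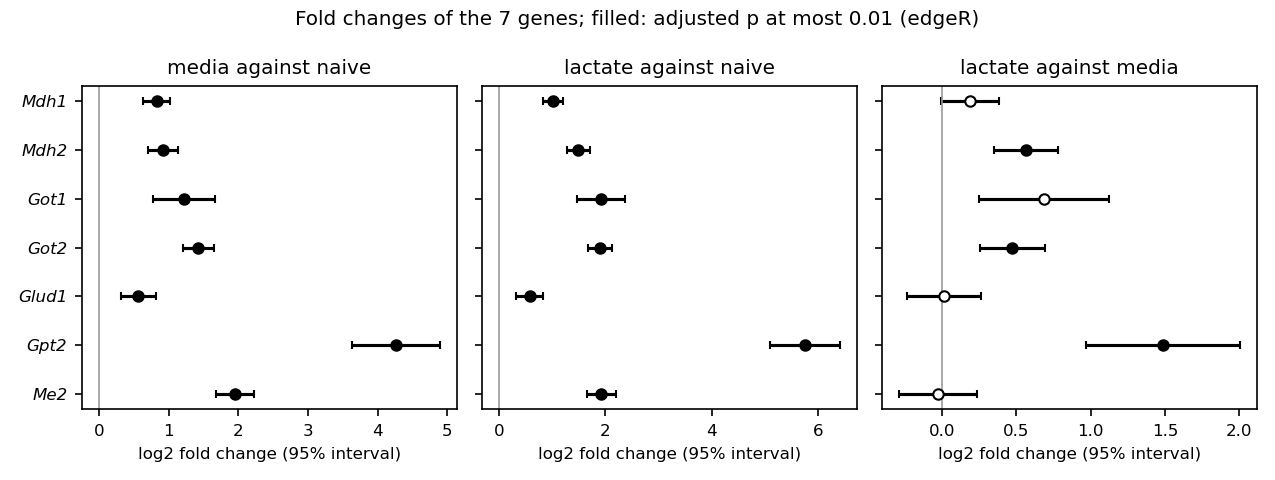
Log2 fold changes of the 7 genes with their 95% intervals in the 3 comparisons (edgeR, all 12 libraries, a separate axis for each comparison); filled points have an adjusted p of at most 0.01. All 7 are filled in both comparisons with naïve cells, and *Mdh2*, *Got2* and *Gpt2* are filled in lactate against media, with *Glud1* (0.014, negative under the other scalings) and *Me2* (-0.027) at 0.

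Levels were compared between genes in TPM, which divides by the exon length of each gene in the table (2662 bases for *Mdh1*, where GENCODE gives 2567, and equal to GENCODE for the other 6). In naïve cells the order was *Glud1* (192 ± 27.2), *Mdh1* (175 ± 4.95), *Mdh2* (142 ± 6.73), *Got1* (47.4 ± 20.4), *Me2* (43.9 ± 5.42), *Got2* (36.9 ± 1.66) and *Gpt2* (1.13 ± 0.32; SD, n = 4). The ranges of *Glud1* and *Mdh1* overlapped, as did those of *Got1* and *Me2* and of *Me2* and *Got2*. In media the order was *Mdh1* (315 ± 7.31), *Glud1* (287 ± 25.6), *Mdh2* (274 ± 38.2), *Me2* (173 ± 9.47), *Got1* (112 ± 15.4), *Got2* (101 ± 9.60) and *Gpt2* (22.1 ± 8.597). The first 3 overlapped with their neighbours, as did *Got1* with *Got2*. In lactate *Mdh2* led (369 ± 21.9), then came *Mdh1* (327 ± 35.5), *Glud1* (264 ± 21.3), *Got1* (163.5 ± 9.10), *Me2* (154.5 ± 18.3), *Got2* (128 ± 13.9) and *Gpt2* (56.2 ± 5.26). There *Mdh2* and *Mdh1* overlapped, and so did *Got1* with *Me2* and *Me2* with *Got2*.

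The summed level of the 7 genes was 638.5 ± 41.3 TPM in naïve, 1284 ± 85.1 in media and 1462 ± 37.0 in lactate libraries. *Glud1* made up 30.0 ± 2.29% of the sum in naïve cells, 22.4 ± 1.37% in media and 18.1 ± 1.45% in lactate. The share of *Gpt2* went the other way, from 0.175 ± 0.0404% through 1.70 ± 0.58% to 3.85 ± 0.37%. *Got1* made up 8.67 ± 0.70% in media and 11.2 ± 0.52% in lactate, and *Me2* 13.6 ± 1.64% and 10.6 ± 1.10% (SD, n = 4 each). A share of the sum falls when other genes of the set rise, and TPM is not scaled by TMM. In TMM-scaled CPM *Glud1* and *Me2* were nearly level between media and lactate (log2 differences 0.014 and -0.027).

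**Figure D4:**
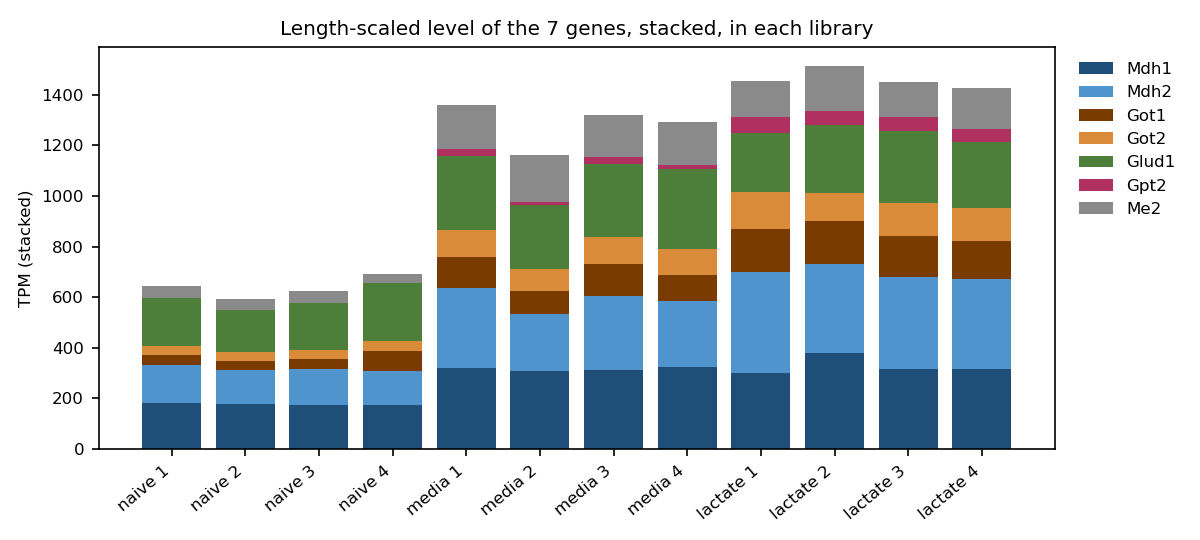
TPM of the 7 genes stacked in each of the 12 libraries (linear axis from 0). Naïve libraries sum to 594 to 692 TPM, media libraries to 1163 to 1360 and lactate libraries to 1427 to 1514, and *Gpt2* is hardly visible in naïve cells.

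The surrounding steps were read from lists of 42 genes, of which 35 were in the table and all of these were tested. The lists too were chosen with earlier results of these data known. In lactate against media 11 were called higher and 1 lower, with a median log2 fold change of 0.40, where 13.9% of all tested genes were called higher and 11.1% lower and the median over all genes was -0.0016. With donor as a replicate block in the fit of 12 libraries, 1 was called, *Slc25a10*, and in the block over the 8 activated libraries 10 were. Between lactate and media, 17 of the 35 did not overlap with all lactate libraries on top, as did 23.2% of all genes.

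Of 6 mitochondrial carriers, 2 rose. *Slc25a10*, the dicarboxylate carrier that exchanges malate and succinate for phosphate, rose from 13.9 ± 3.09 CPM in media to 30.5 ± 3.46 CPM in lactate (log2 fold change 1.13 ± 0.17, adjusted p = 0.00034, edgeR) and was the only listed carrier called in every alternative. *Slc25a13*, an aspartate-glutamate carrier of the shuttle, rose from 18.7 ± 4.49 to 39.2 ± 4.15 CPM (1.07 ± 0.23, adjusted p = 0.0029), and lost its call when media replicate 2, media replicate 4 or lactate replicate 1 was left out. Its paralogue *Slc25a12* was at 92.9 ± 1.16 and 103 ± 6.99 CPM (0.15 ± 0.19, adjusted p = 0.55). The 2-oxoglutarate carrier *Slc25a11*, through which malate enters, was at 79.2 ± 9.63 and 92.0 ± 2.19 CPM (0.22 ± 0.12, adjusted p = 0.17), and the citrate carrier *Slc25a1* at 108 ± 13.4 and 112 ± 13.2 CPM (0.051 ± 0.17, adjusted p = 0.85).

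None of the 6 genes of glutamine uptake, cleavage and synthesis was called between lactate and media. The glutamine transporter *Slc1a5* came nearest, at 299 ± 39.3 CPM in media and 389 ± 36.6 in lactate (0.38 ± 0.11, adjusted p = 0.018), while *Slc38a2* (0.12 ± 0.13) and *Slc38a1* (0.071 ± 0.13) had adjusted p of 0.50 and 0.70 in edgeR.

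The glycerol-3-phosphate shuttle is the other route for cytosolic NADH. *Gpd2*, its mitochondrial dehydrogenase, rose from 106 ± 20.01 to 164 ± 31.3 CPM (0.64 ± 0.16, adjusted p = 0.0063, edgeR), with overlap between the groups and a call lost in 7 alternatives, 5 of which leave out a library (media replicate 2 or 4, or lactate replicate 1, 3 or 4). *Gpd1l* rose from 53.0 ± 2.19 to 78.6 ± 8.52 CPM (0.57 ± 0.094, adjusted p = 0.00061). *Gpd1* was at 14.2 ± 6.41 CPM in naïve libraries, which also held RNA of other cells, and below 1 CPM on average in both activated groups.

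Of 12 enzymes at or next to steps that use or make glutamate, glutamine or aspartate, 4 rose and 1 fell. *Psat1*, the phosphoserine aminotransferase of serine synthesis, which takes its amino group from glutamate, rose from 366 ± 76.1 to 660.1 ± 47.5 CPM (0.85 ± 0.15, adjusted p = 0.00097, edgeR). *Aldh18a1*, which starts proline synthesis from glutamate, rose by 0.78 ± 0.16 (adjusted p = 0.0021). *Cad*, which starts pyrimidine synthesis from glutamine and then uses aspartate, rose by 1.06 ± 0.23 (adjusted p = 0.0032), a call lost without media replicate 4 or lactate replicate 1. *Ppat*, the glutamine-consuming first enzyme of purine synthesis, rose by 0.70 ± 0.13 (adjusted p = 0.0012). *Ass1*, which joins aspartate to citrulline, fell by 0.66 on the log2 scale, from 46.3 ± 5.38 to 29.4 ± 3.98 CPM (adjusted p = 0.0019). Asparagine synthetase *Asns* (0.54 ± 0.25, adjusted p = 0.11), *Oat* (0.35 ± 0.14, adjusted p = 0.058) and *Adss* (-0.047 ± 0.16, adjusted p = 0.85) were not called.

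Of 7 enzymes at or next to steps that make or use pyruvate and oxaloacetate, 3 rose with lactate. Fumarase *Fh1*, which makes malate, rose from 82.4 ± 8.42 to 122 ± 7.75 CPM (0.57 ± 0.095, adjusted p = 0.00070, edgeR). Citrate synthase *Cs* rose by 0.40 ± 0.094 (adjusted p = 0.0048) and lactate dehydrogenase *Ldha* by 0.45 ± 0.11 (adjusted p = 0.0047). Both lost their calls when media replicate 2, media replicate 4, lactate replicate 3 or lactate replicate 4 was left out, *Cs* also without lactate replicate 1 and *Ldha* also without media replicate 3 and with upper quartile scaling. *Cs*, *Fh1* and *Ldha* are genes that the study labelled on these samples. Pyruvate carboxylase *Pcx*, without overlap between the groups, missed the threshold (0.49 ± 0.14, adjusted p = 0.013), and its adjusted p over the alternatives ran from 0.0028, past the threshold, to 0.16. *Pck2* (0.44 ± 0.20, adjusted p = 0.10) and *Acly* (0.0053 ± 0.099, adjusted p = 0.99) were not called.

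**Figure D5:**
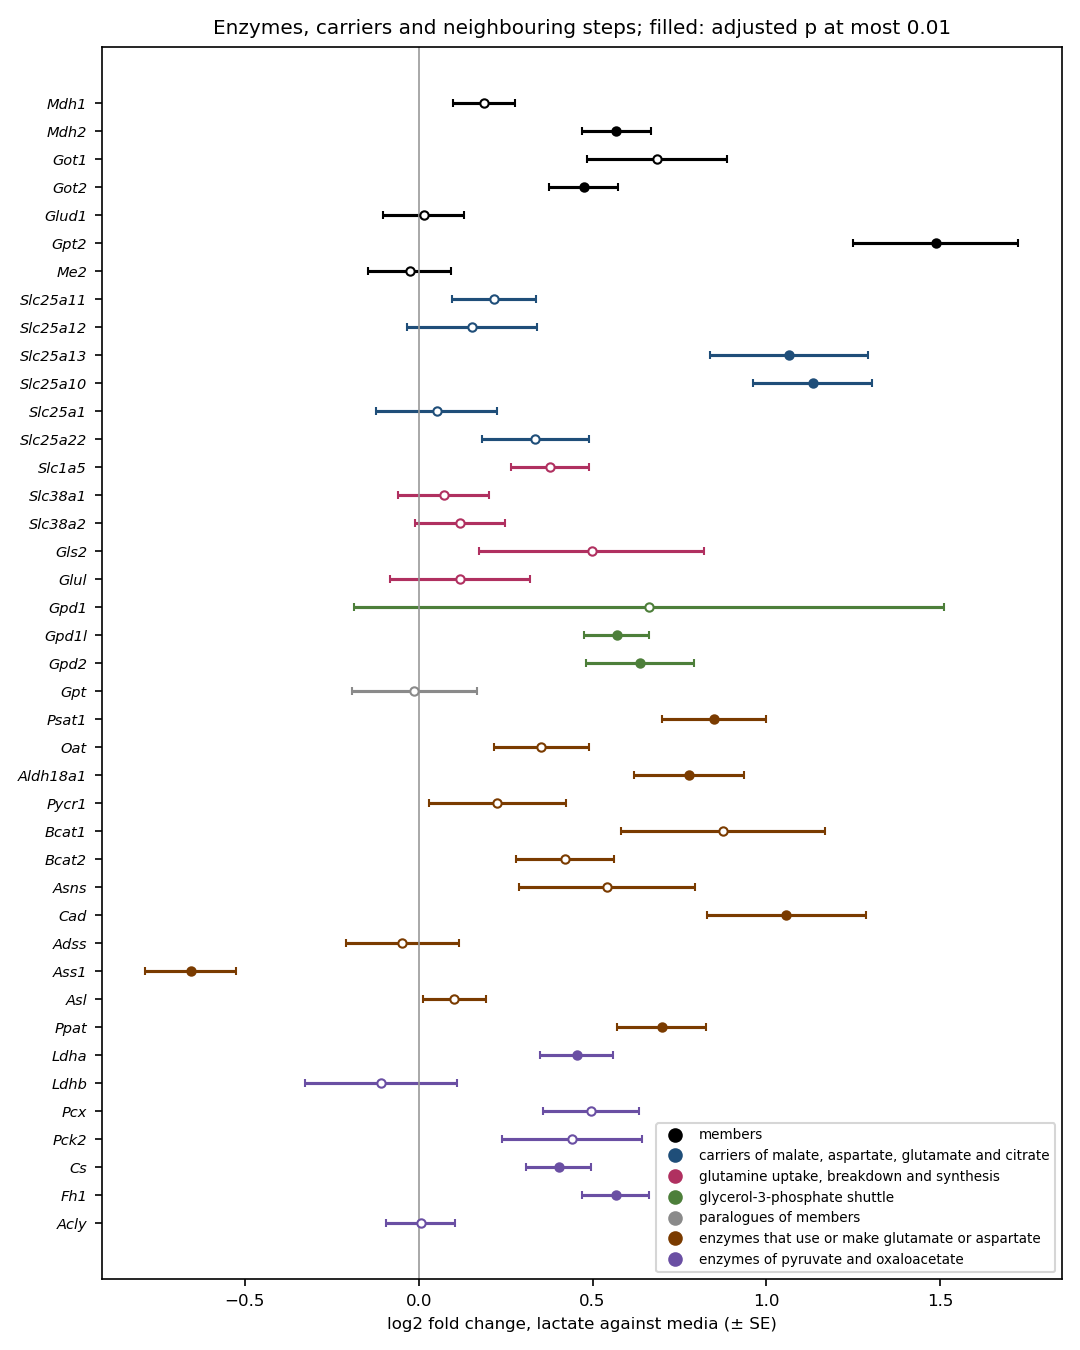
Log2 fold change ± SE in lactate against media (edgeR) of the 7 genes and of the listed genes of neighbouring steps that are reported here, coloured by list; filled points have an adjusted p of at most 0.01. Among the listed genes 11 filled points lie right of 0 and *Ass1* lies left of it (-0.66); no gene of glutamine uptake, breakdown and synthesis is filled.

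Against naïve cells, 20 of the 35 listed genes were called higher and 5 lower in media, and 25 higher and 3 lower in lactate. Over all tested genes the shares were 28.5% higher and 29.0% lower in media, and 33.0% and 32.0% in lactate. In media the called decreases were *Slc25a22*, *Slc38a2*, *Glul*, *Gpd1* and *Gpd1l*, named because they were few. Glutamine synthetase *Glul* went from 200.0 ± 43.9 CPM in naïve to 70.04 ± 19.97 in media and 76.1 ± 12.8 in lactate libraries (log2 fold changes -1.51 ± 0.20 and -1.40 ± 0.20, adjusted p = 2.9e-05 and 4.4e-05, edgeR). *Psat1*, by contrast, rose from 30.9 ± 4.51 CPM in naïve to the activated levels given above. In the list of glutamine genes *Gls2* rose from 0.52 ± 0.53 CPM in naïve to 21.8 ± 3.9 in media and 30.75 ± 3.96 in lactate libraries. Its log2 fold changes were 5.37 ± 0.44 and 5.86 ± 0.44 (adjusted p = 3.8e-07 and 1.4e-07, edgeR). The naïve libraries also held RNA of other cells, whose part in these values was not tested.

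The genes whose log2 CPM ran most like each of the 7 over the 8 activated libraries were sought among genes of at least 5 CPM on average. These correlations are descriptions: the libraries fall into the media and lactate groups, share the same scaling, and genes that differ between the groups correlate for that alone. For *Gpt2* the nearest were *Rps27l* (r = 0.998), *Shmt2* (0.998) and *Mthfd2* (0.997), and *Shmt2* and *Mthfd2* encode mitochondrial enzymes of one-carbon metabolism. For *Mdh2* they were *Psat1* (0.997), *Trp53i11* (0.997) and *Ruvbl1* (0.996), for *Got1* *Ctsz* (0.998), *Gadd45gip1* (0.997) and *Mcrip2* (0.997), while for *Got2* *Taf5l* (0.993) and *Rad23b* (0.992) were among the 3 nearest. For *Mdh1* they were *Rpl18* (0.972), *Pacsin3* (0.965) and *Atp5h* (0.961), for *Glud1* *Lcmt1* (0.942), *N4bp3* (0.940) and *Zfp622* (0.932), and for *Me2* *Cdca3* (0.952), *Rusc1* (0.938) and *Smim8* (0.931). Within the set, *Mdh2*, *Got1* and *Gpt2* correlated pairwise at 0.985 to 0.988, and *Got2* with them at 0.918 to 0.958. *Glud1* correlated with these 4 genes at 0.122 to 0.193 and *Me2* at -0.455 to -0.290. Over all 12 libraries, where activation separates the groups, the nearest gene was *Prkcsh* for *Mdh1*, *Thop1* for *Mdh2*, *Nasp* for *Got1*, *Kars* for *Got2*, *Surf4* for *Glud1*, *Ywhae* for *Gpt2* and *Fbxo44* for *Me2*, at r from 0.962 to 0.998.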

How the data were processed

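RNA was sequenced in 12 libraries (polyA-selected, strand-marking kit). The deposited table holds raw counts of reads per gene, made by the authors with bcl2fastq 2.20.0.422, STAR 2.7.5b (GRCm38, PCR duplicates removed) and featureCounts on uniquely mapped reads in exons, with the exon length of each gene in bases. Whether the counting used strand is not given in the sources used here. The table was already limited to expressed genes.

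Counts were analysed in R 4.3.3 with edgeR 4.0.16: genes with at least 1 CPM in 3 libraries were kept, TMM scaling was used, and a quasi-likelihood model of 3 groups without a block was fitted to all 12 libraries, testing two-sided with adjustment by Benjamini-Hochberg over 13767 genes and a threshold of 0.01. The common dispersion was 0.0553 (biological coefficient of variation 23.5%). Standard errors are the absolute log2 fold change divided by the root of the F statistic. Ratios within libraries were compared by exact permutation over 70 arrangements. The scripts were tested on simulated data. DESeq2 1.42.0 and limma 3.58.1 (voom) served as alternatives. Exon positions and overlaps come from GENCODE M21, promoters from RefSeq.

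Groups, replicate numbers and donor tags come from the labels. Donor tags restart with the library numbers and were read separately for the 8 libraries of low and the 4 of high number, which gives 5 donors of activated cells. Libraries of the same donor deviated together from their group means (r = 0.374, 0.211 and 0.553 over 3 pairs), though pairs of different donors reached 0.297 and 0.371, and the title numbers do not all follow the donors. Named genes are the 7 enzymes, every listed pathway gene called in lactate against media, at most 3 others per list by mean CPM, and the 3 genes most correlated with each enzyme. Some genes that these rules select are left out of the text. The 7 genes and the lists were chosen with earlier results of these data known.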

Additional observations from a re-analysis of the deposited data

Results flagged for a closer look

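Within groups of 4 libraries, 6 values of 30 groups checked lay further from the rest than Dixon's critical value for 4 samples allows, where chance gives about 1 in 20. *Got1* was at 55.2 CPM in naïve replicate 4, against 25.9 to 30.6 CPM in the other naïve libraries. *Me2* was at 72.8 CPM in the same library, against 99.5 to 102 CPM. That library also had the lowest sum of CD8+ T cell markers among the naïve libraries (2497 CPM) and the lowest sums of myeloid (493 CPM) and red cell (85.1 CPM) markers, and the part of these in the 2 values was not tested. *Got2* was at 119.8 CPM in media replicate 2, against 146 to 149.5 CPM, and at 165 CPM in lactate replicate 2, against 203 to 210.3 CPM. The ratio of *Glud1* to *Gpt2* was 237 in naïve replicate 2, against 154.8 to 162, where *Gpt2* rests on 20 counts. It was 3.70 in lactate replicate 1, against 5.06 to 5.12.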

How the results depend on the processing

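Of 810 values recomputed under alternatives, 782 were counted as unchanged. Fold changes counted so kept their side of the threshold, and their direction wherever either fit passed it. The others moved by less than the spread between replicates or, for counts of called genes, stayed within 1.5 times the main count. The uncalled differences of *Glud1* and *Me2* between lactate and media turned sign under some alternatives and are among the 782. With donor as a replicate block, the number of genes called between lactate and media fell to 1 of the 7 enzymes and to 1 of the 35 listed pathway genes, and over all genes from 3451 to 992. A block over the 8 activated libraries alone, added after seeing the data, called 3654 genes, against 4603 in a fit of these libraries without a block; the cause of the difference was not tested. Blocking by title number changed no call among the 7 enzymes. Leaving out 1 library at a time, 2 to 4 of the enzymes and 7 to 16 of the listed genes were called in lactate against media, the lowest of the latter without media replicate 4 and the highest without naïve replicate 4. *Got1* passed in 6 of the 25 alternatives of lactate against media. Among these were edgeR's likelihood ratio test (adjusted p = 0.0045), DESeq2 (0.0088) and limma voom (0.0081). Among libraries of high number, with 1 naïve library, the log2 ratio difference of *Got1* to *Got2* was -0.94 (media against naïve) and -0.69 (lactate against naïve), and that of *Glud1* to *Gpt2* -3.12 and -4.96; the cause was not tested. For the difference in the *Got1* to *Got2* ratio against naïve, leaving out 1 library gave -0.28 to 0.10 for media and -0.058 to 0.33 for lactate, so it took both signs. With 3 against 4 libraries the permutation test cannot go below 0.0571.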
